A study of Mus musculus with 20 samples.

Results

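The oligoadenylate synthetase (Oas) family was followed in microglia and astrocytes sorted from the mouse brain after traumatic brain injury. The 8 members were taken by symbol from a table of read counts for 39017 gene identifiers, and they were *Oas1a*, *Oas1b*, *Oas1c*, *Oas1g*, *Oas2*, *Oas3*, *Oasl1* and *Oasl2*, whatever their values. All animals were adult male C57BL/6J mice aged 3 to 4 months, without a transgene, and each library came from a single animal with no pooling. FPI mice received a lateral fluid percussion injury, a pulse of fluid driven onto the exposed dura, and sham mice had the same surgery without the pulse. Forebrain tissue of the injured side was taken 7 days later and the cells were sorted by antibody, microglia as CD11b+ cells with intermediate CD45 and astrocytes by the surface antigen ACSA-2. Each of the 4 groups (sham microglia, FPI microglia, sham astrocytes and FPI astrocytes) held 5 libraries.

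Oas proteins are induced by interferon and bind double-stranded RNA, which marks viral infection and also arises from the cell's own repeats and mitochondria. The bound enzyme joins ATP into short oligoadenylates with an unusual linkage, and these act as a second messenger of antiviral defence inside the cell. In the mouse, *Oas1* is expanded into a row of paralogs, *Oas2* and *Oas3* carry repeated synthetase units, and the Oas-like genes *Oasl1* and *Oasl2* add ubiquitin-like domains at their ends. Microglia, the resident macrophages of the brain, and astrocytes, its main homeostatic glia, both carry the type I interferon receptor.

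All family genes lie on chromosome 5 (GRCm38, GENCODE M21). *Oasl2* (chr5:114896936-114912234, plus strand) and *Oasl1* (chr5:114923240-114937915, plus strand) span 41 kb together, and a gap of 5.79 Mb separates them from a cluster of 191 kb that runs from *Oas2* to *Oas1d*. That cluster holds *Oas2* (chr5:120730333-120749853, minus strand), *Oas3* (chr5:120753098-120777661, minus strand) and 8 *Oas1* genes. The members among those 8 are *Oas1c* (chr5:120800194-120812514, minus strand), *Oas1b* (chr5:120812635-120824163, plus strand), *Oas1g* (chr5:120876142-120887613, minus strand) and *Oas1a* (chr5:120896256-120907521, minus strand). *Oas1c* and *Oas1b* point away from each other, with starts 121 bases apart. *Oas1b* is annotated as a polymorphic pseudogene, because strains such as C57BL/6 carry a truncated form of this flavivirus resistance gene. The other 4 *Oas1* paralogs, *Oas1d*, *Oas1e*, *Oas1f* and *Oas1h*, had 0 counts in all 20 libraries.

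Interferon acts on promoters through a short repeat of GAAA known as the interferon-stimulated response element, so promoters were searched on both strands for 2 GAAA repeats with any 2 bases between them, in windows from 250 bases before to 50 bases after each RefSeq start (GRCm38.p6). Of the 6 members with a window, 4 held such a pair, and *Oasl1* and *Oasl2* did not. No window was available for *Oas2* and *Oas1b*, so no search was made from their own starts. For comparison, 1131 of all 32851 windows held one (3.44%). Counted by gene, as for the members, a match in any window of the gene was enough. By that count 340 of the 8634 genes tested in microglia that had a window held one (3.94%). So did 34 of the 160 genes called higher in FPI microglia that had a window (21.2%). Genes without a window were left out, from 12143 tested and 259 called higher. The 30 bases around the first match in each of the 4 members are shown because neighbouring genes share them. The lines are read 5′ to 3′ along the strand that holds the match, and capitals mark the matched letters.

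Oas1a, chr5:120907526-120907555, minus strand: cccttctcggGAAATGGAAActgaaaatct
Oas1g, chr5:120887612-120887641, minus strand: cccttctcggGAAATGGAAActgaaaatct
Oas1c, chr5:120812603-120812632, plus strand, opposite to the gene: cccttcccggGAAATGGAAActgaaagtcc
Oas3, chr5:120777715-120777744, minus strand: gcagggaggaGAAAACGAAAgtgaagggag

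The windows of *Oas1a* and *Oas1g* were identical over these 30 bases, and that of *Oas1c* differed from them at 3. The match lay at bases -20 to -11 from the start of *Oas1a*, -18 to -9 of *Oas1g* and -75 to -66 of *Oas3*. In *Oas1c* it lay farther out, at -108 to -99 and on the opposite strand, which put it 22 to 13 bases before the annotated start of the divergent *Oas1b*. In *Oas1a*, *Oas1g* and *Oas1c* a second match overlapped the first, sharing its later GAAA. Over the whole window the promoters of *Oas1a* and *Oas1g* were identical in 261 of 306 aligned positions (85.3%). A match describes letters only, and binding was not measured.

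Identity reached into the transcripts as well. Of the 1786 stretches of 100 bases in *Oas1a* transcripts, 730 (40.9%) also occurred in *Oas1g*, and these were 31.2% of the stretches of *Oas1g*. Reads from the shared stretches cannot be placed on one gene by sequence, so the split of counts between *Oas1a* and *Oas1g* is uncertain. *Oas1c* shared 4.23% of its stretches with an antisense gene that was not in the count table, and the other 5 members shared none with any other gene.

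**Figure D1:**
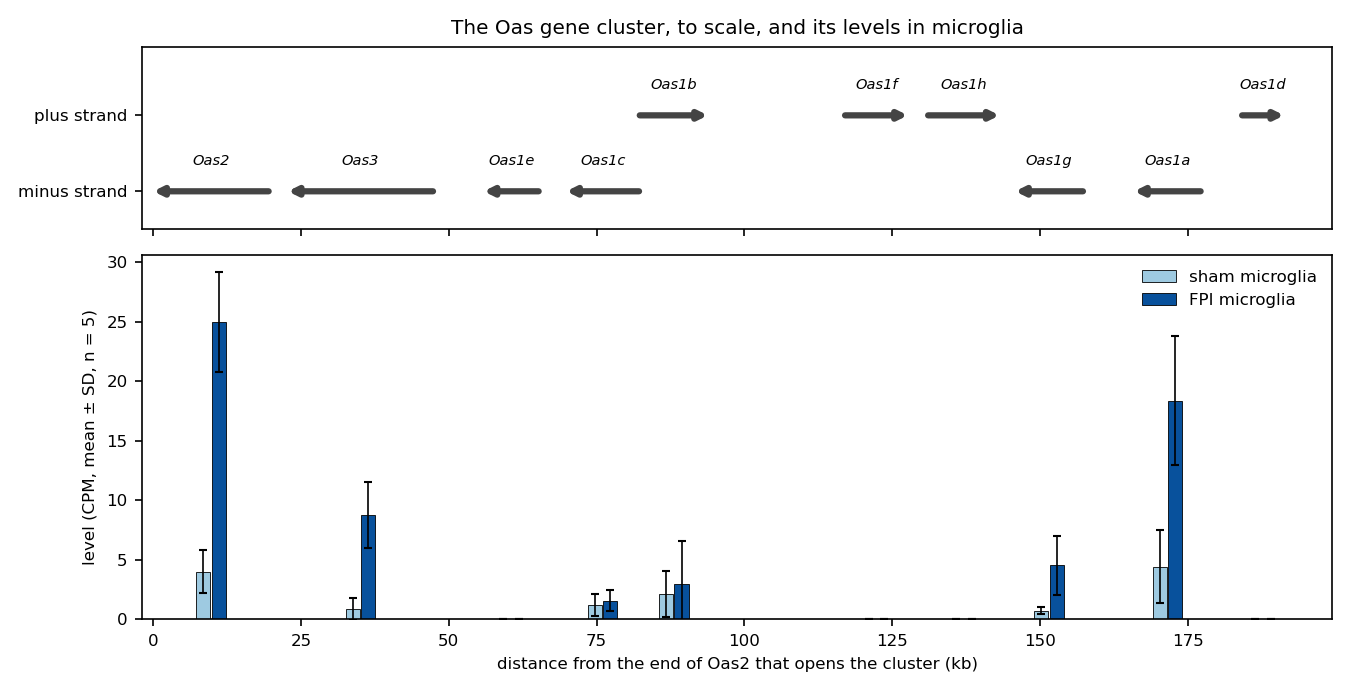
The upper panel draws the *Oas* cluster to scale (distance from the start of the cluster in kb, arrows along the direction of transcription), and the lower panel gives the mean level of each gene in sham and FPI microglia (CPM, bars are SD, n = 5). The largest differences in CPM between the groups are those of *Oas2* and *Oas1a*, and the 4 paralogs *Oas1d*, *Oas1e*, *Oas1f* and *Oas1h* stand at 0.

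Total counts ran from 5623349 to 13110857 per library (mean 8.51 M). Levels are in CPM, with each library scaled to a common total, on the TMM scale, in which 1 factor per library corrects for differences in composition. Sorting was checked by markers: the summed level of 7 microglial markers was 11100 to 19300 CPM in microglia and 30.1 to 123 in astrocytes, and that of 6 astrocyte markers was 8980 to 28100 CPM in astrocytes and 225 to 564 in microglia. Astrocyte libraries also held transcripts of other glia: the summed level of 3 oligodendrocyte markers was 1090 to 12700 CPM in sham and 2280 to 7890 CPM in FPI astrocytes, and in sham replicate 4 it was above that of the astrocyte markers (12700 against 8980 CPM). Levels given for astrocytes below are those of the sorted libraries. The 3 T cell markers were at 0 in all microglia libraries. In the summed level of monocyte and border macrophage markers, microglia replicates 1 to 3 stood above replicates 4 and 5, whose names belong to another series. The name of the library for FPI astrocyte replicate 5 ends in a microglia suffix and repeats the animal of FPI astrocyte replicate 2, but its label was that of astrocytes. Its astrocyte markers summed to 13626 CPM and its microglial markers to 123 CPM, the highest microglial sum among the astrocyte libraries. Names also show that 3 animals contributed both microglia and astrocytes.

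The first question was how the family differed between sham and FPI microglia. Microglia and astrocytes were tested separately by the quasi-likelihood method of edgeR, with Benjamini-Hochberg adjustment over all tested genes. Genes count as called where the adjusted p lay below 0.1 and the log2 fold change was larger than 0.6 in size. In microglia all 8 members passed the filter on low counts, 6 were called higher in FPI mice, 0 were called lower and 2 were not called. Over all 12143 genes tested, 2.35% were called in either direction. The same 6 members were those whose 5 FPI libraries all lay above the 5 sham libraries, a separation seen in 2.17% of all genes. *Oas1g*, *Oas3* and *Oasl1* had few counts per sham library (3 to 12, 2 to 22 and 5 to 27) and passed the filter through the FPI libraries. The counts of called and separated members therefore describe the family and are not a test of it. The median log2 fold change of the 8 members was 2.37, against -0.00943 for all genes. In sorted cells of unknown number, a higher share of cells with a transcript and more transcript per cell cannot be told apart.

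*Oasl2*, an Oas-like gene whose mouse product retains synthetase activity, had the smallest p of the family. Its levels in the 5 sham microglia libraries were 11.9, 3.22, 11.4, 11.5 and 7.01 CPM, and in the 5 FPI libraries they were 96.1, 69.6, 44.1, 44.8 and 98.7 CPM. The lowest FPI library thus stood well above the highest sham library. Means were 9.0 ± 3.79 and 70.7 ± 26.5 CPM (SD, n = 5), an 8.01-fold rise (log2 fold change 3.00, SE 0.33, edgeR adjusted p = 3.7e-05), and *Oasl2* ranked 5 among all genes by p. *Oasl1*, its neighbour, encodes a member without synthetase activity that is known as a repressor of Irf7 translation. Its sham libraries were at 0.62, 0.659, 3.02, 2.38 and 1.52 CPM and its FPI libraries at 9.10, 6.12, 4.94, 4.31 and 8.20 CPM. The groups did not overlap, with a log2 fold change of 2.01 (SE 0.53, edgeR adjusted p = 0.0589). This was the least secure call of the 6: it was lost in 10 of 19 alternative fits, among them 6 of the 10 that left out 1 library, with adjusted p from 0.00422 to 0.405 over all 19.

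*Oas2* encodes a large synthetase with a pair of synthetase units. It was measured at 6.00, 1.32, 3.47, 5.22 and 3.98 CPM in sham microglia and at 29.8, 25.5, 23.9, 18.6 and 27.3 CPM in FPI microglia. The groups lay far apart, with every FPI library at 18.6 CPM or above and every sham library at 6.00 or below, and the rise was 6.38-fold (log2 fold change 2.67, SE 0.33, edgeR adjusted p = 8.44e-05). *Oas3* encodes the largest synthetase, the form known to bind long double-stranded RNA. Its sham libraries held 0.250, 0.146, 2.46, 0.908 and 0.568 CPM, of which the 2 lowest rested on 2 counts each. Its FPI libraries held 6.42, 6.99, 13.3, 7.70 and 9.35 CPM. The log2 fold change of 3.32 (SE 0.61, edgeR adjusted p = 0.0045) was the largest estimate of the family, from the lowest sham level among the called members other than *Oas1g*.

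*Oas1a* and *Oas1g* encode the small active synthetases of the mouse. *Oas1a* was at 3.37, 1.39, 4.82, 9.42 and 3.03 CPM in sham microglia and at 20.8, 19.8, 16.5, 10.2 and 24.6 CPM in FPI microglia. The gap between the groups was narrow here, between sham replicate 4 and FPI replicate 4. The log2 fold change was 2.08 (SE 0.40, edgeR adjusted p = 0.00619). *Oas1g* was at 0.375, 0.878, 0.896, 0.454 and 0.947 CPM in sham microglia and at 3.03, 8.74, 2.65, 4.16 and 3.97 CPM in FPI microglia. Its log2 fold change was 2.66 (SE 0.62, edgeR adjusted p = 0.0271), but without FPI replicate 2, the library that stood highest, it was 2.29 with an adjusted p of 0.174. The sequence that both genes share limits how far these values can be read as separate.

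The pair of divergent neighbours, *Oas1b* and *Oas1c*, was not called. *Oas1b* was at 0.375, 1.39, 0.672, 5.11 and 2.84 CPM in sham microglia and at 0, 3.49, 8.91, 1.69 and 0.768 CPM in FPI microglia. Its libraries were scattered in both groups, and FPI replicates 1 and 3 formed both ends of the range. The log2 fold change was 0.52 (SE 0.90, edgeR adjusted p = 0.911). *Oas1c* was at 2.75, 1.02, 1.23, 0.795 and 0.189 CPM in sham microglia and at 2.45, 1.87, 0.361, 2.16 and 0.897 CPM in FPI microglia, groups that overlapped throughout, and the log2 fold change was 0.36 (SE 0.76, edgeR adjusted p = 0.930). With totals of 55 to 119 counts per group for these 2 genes, the SE of *Oas1b* leaves room for a change as large as that of *Oas1a*, and the sign of its estimate turned in 3 alternative fits.

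**Figure D2:**
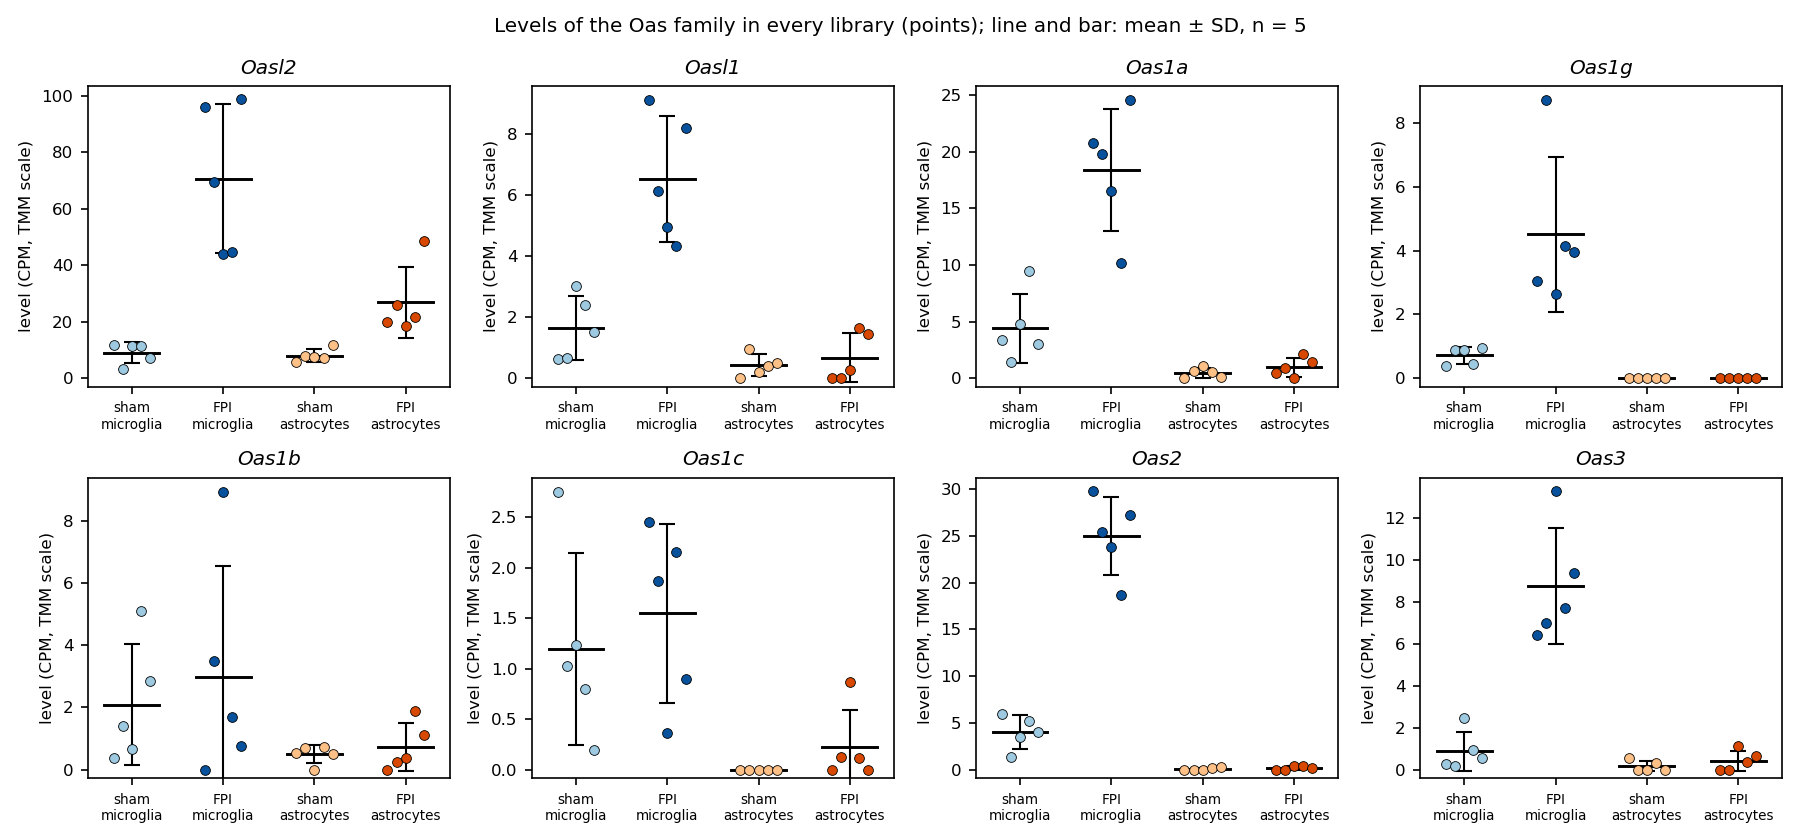
Levels of the 8 members in every library (CPM on the TMM scale, 1 panel per gene with its own axis; points are libraries, line and bar are mean ± SD, n = 5). In microglia 6 members show FPI points above all sham points, and in astrocytes *Oasl2* is the one member above 5 CPM.

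The same difference was measured within each series of library names. In replicates 1 to 3 alone 4 members were called by edgeR, and in replicates 4 and 5 alone 3 were. The share of all genes called in these smaller fits is not given here, so these counts have no background to be read against. *Oasl2* had log2 fold changes of 3.00 in replicates 1 to 3 and 2.99 in replicates 4 and 5, *Oas2* had 2.88 and 2.36, and *Oas3* had 3.21 and 3.52, each called in both. *Oas1a* was called in replicates 1 to 3 (2.57) and not in replicates 4 and 5 (1.51, edgeR adjusted p = 0.278). *Oas1g* (2.69 and 2.59) and *Oasl1* (2.22 and 1.72) were called in neither. *Oas1b* pointed opposite ways, with 2.27 and -1.65 and no call.

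Microglia differed among themselves in a way that the members partly shared. With group means removed, *Oasl2* was correlated over the 10 microglia libraries with *Oas2* (r = 0.867), *Oas1a* (r = 0.826) and *Oasl1* (r = 0.646). It was less correlated with *Oas3* (r = 0.37) and *Oas1c* (r = 0.33), hardly with *Oas1g* (r = -0.163), and negatively with *Oas1b* (r = -0.45). *Oas1b* and *Oas1c* ran against each other (r = -0.681) at low counts. These are descriptions over 10 libraries that differ in depth and come from both series of names. The genes most like *Oasl2* by the same measure among 12142 others were *Ifi204* (r = 0.970), *Sdc3* (r = 0.961) and *Edc4* (r = 0.943). Of these, *Ifi204*, an interferon-inducible DNA sensor gene, and *Sdc3*, which encodes a membrane heparan sulfate proteoglycan, were themselves called higher in FPI microglia (log2 fold changes 2.47 and 1.49), while *Edc4*, which encodes a scaffold of mRNA decapping, was not (-0.17, edgeR adjusted p = 0.765).

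Genes whose products remove oligoadenylates or are linked to their pathway were followed beside the family. *Enpp1* encodes an ectonucleotidase that can cut oligoadenylates and also cuts the signalling nucleotide cGAMP outside cells. It was at 14.6, 10.98, 12.1, 17.0 and 10.2 CPM in sham microglia and at 40.6, 26.6, 23.0, 21.3 and 22.4 CPM in FPI microglia, without overlap, and it was called higher (log2 fold change 1.06, SE 0.23, edgeR adjusted p = 0.0164). *Pde12*, which encodes the mitochondrial phosphodiesterase of oligoadenylates, had -0.10 on the log2 scale (SE 0.31, adjusted p = 0.956 in edgeR). *Akap7*, an anchoring protein gene with a phosphodiesterase fold, had 0.31 (SE 0.20, adjusted p = 0.635 in edgeR). *Abce1*, which encodes a ribosome recycling factor, had -0.03 (SE 0.15, adjusted p = 0.978 in edgeR). Of these 4 pathway genes, 1 was thus called higher, 0 lower and 3 were not called, beside 2.35% called among all genes.

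Other sensors of double-stranded RNA were called higher in FPI microglia in part. Of 9 genes of double-stranded RNA sensing and editing, 6 were called higher, 0 lower and 3 were not called, beside 2.35% called among all genes, with a list median of 0.757 on the log2 scale. They were *Zbp1*, a sensor of Z-form nucleic acid (2.57), *Dhx58* (1.28), *Ifih1* (0.76) and *Ddx58* (0.71), the RIG-I-like helicases, *Adar*, the enzyme that edits adenosines in the cell's own double-stranded RNA (0.95), and *Eif2ak2*, the kinase PKR (0.85). *Mavs*, the mitochondrial adaptor of the helicases, the endosomal receptor *Tlr3* and the editing enzyme gene *Adarb1* were not called, with -0.11, -0.28 and -0.07. Of 10 genes from the interferon receptor to the ISGF3 factor and its targets, 4 were called higher and 0 lower, again beside 2.35% of all genes. These were *Isg15* (log2 fold change 3.06), *Irf7* (2.85), *Usp18* (2.47) and *Stat2* (1.00), a subunit of ISGF3. *Irf9*, its DNA-binding subunit, was at 0.45 (edgeR adjusted p = 0.15), and the receptor chains *Ifnar1* and *Ifnar2* were both at 0.13.

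**Figure D3:**
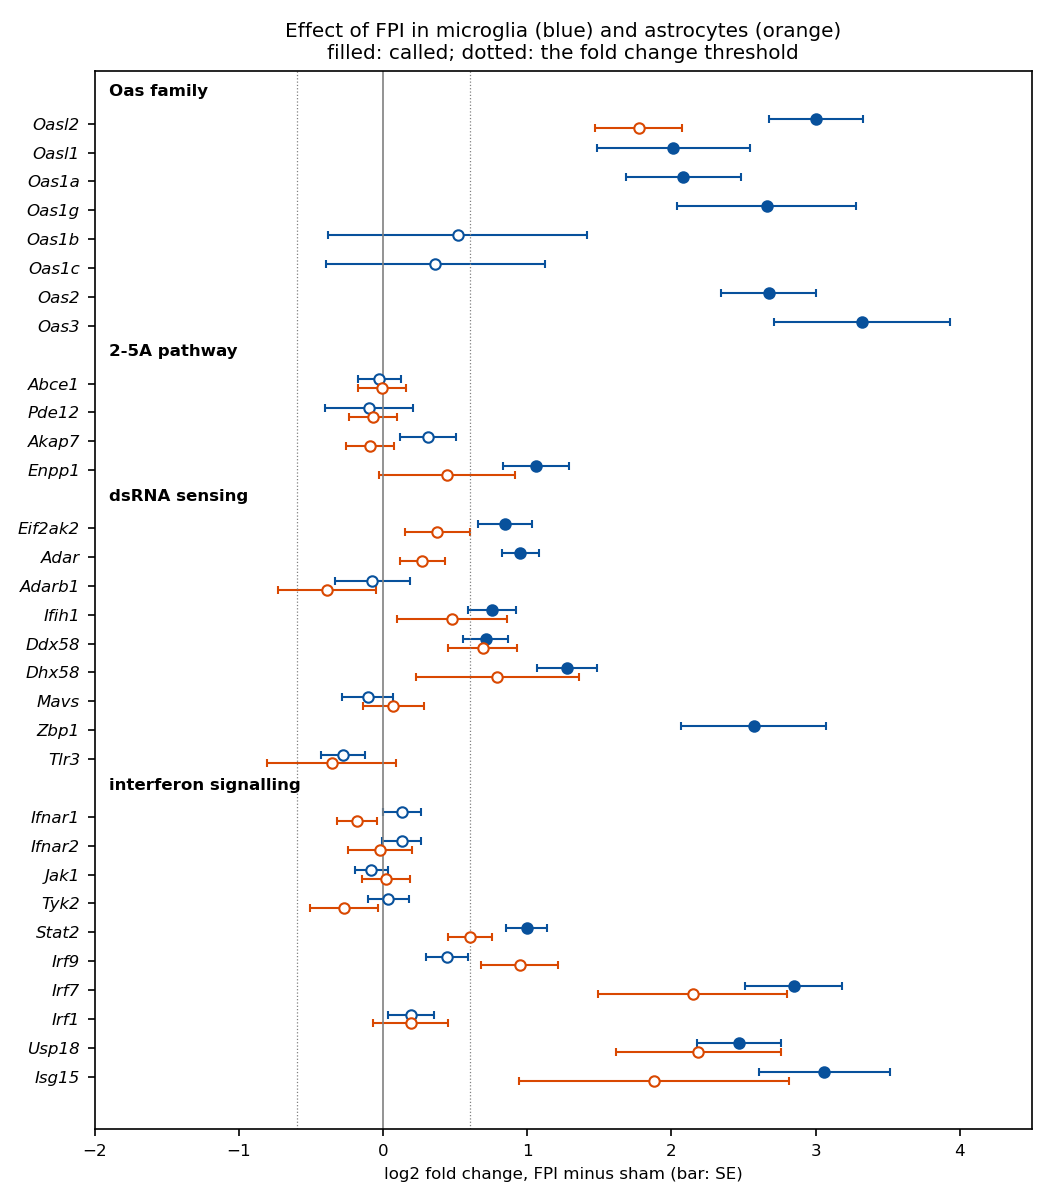
Log2 fold changes between FPI and sham mice (FPI minus sham) for the members and related lists in microglia and astrocytes, with SE as bars, filled points for called genes and dotted lines at the fold change threshold. The called members of microglia lie between 2.01 and 3.32, and *Oasl2* in astrocytes lies at 1.77 without being called.

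In astrocytes a single member, *Oasl2*, passed the filter on low counts, so the family there is mostly described by its counts. *Oasl2* was at 5.84, 7.84, 7.31, 7.29 and 11.6 CPM in sham astrocytes and at 19.8, 25.8, 18.4, 21.5 and 48.6 CPM in FPI astrocytes. All FPI libraries lay above all sham libraries, as they did for 0.451% of the 13741 genes tested. Means were 7.98 ± 2.17 and 26.8 ± 12.5 CPM (SD, n = 5), with a log2 fold change of 1.77 (SE 0.30). Its edgeR p of 6.83e-05 ranked 5 among all genes and gave an adjusted p of 0.151, so it was not called. The number of members called was thus 0, with 1 at an unadjusted p below 0.05 in edgeR and 1 called by DESeq2 (adjusted p = 0.000132). Among all genes tested, edgeR called 0.00728%. The shares of all genes called by DESeq2 and in the other alternatives are not given here. The log2 fold change stayed between 1.42 and 1.95 in all 21 alternatives, and *Oasl2* was called in 5 of them: DESeq2, no filter beyond 1 count, the replicate number as a block, all 20 libraries together and a term for replicates 4 and 5 (adjusted p = 0.000132 to 0.0593). With FPI replicates 2 and 5, which carry the same animal number, summed to 1 library, it was 1.58 (edgeR adjusted p = 0.33). The lowest estimate was that without FPI replicate 5, which had the highest *Oasl2* level. Its levels of oligodendrocyte precursor markers (67.4 to 1220 CPM over FPI astrocytes) and of microglial markers (42.2 to 123 CPM) were also the highest. The part of those cells in the *Oasl2* value was not tested.

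Transcripts of microglia were present at a low level in the astrocyte libraries. The microglial markers stood in FPI astrocytes at 0.552% of their level in FPI microglia, and that share of the *Oasl2* level of FPI microglia is 0.390 CPM, against 26.8 measured. In sham astrocytes the marker share was 0.233%, which gives 0.0210 CPM against 7.98. For *Oas2* the same shares give 0.138 CPM against 0.177 measured in FPI astrocytes, and 0.00933 CPM against 0.0916 in sham astrocytes. All 7 microglial markers were above 0 in both astrocyte groups, with sums of 30.1 to 55.0 CPM in sham and 42.2 to 123 in FPI libraries. These products take the profile of the sorted microglia as fixed, and the part of microglia or of oligodendrocytes in the *Oasl2* and *Oas2* levels of astrocytes was not tested.

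The remaining 7 members were at the edge of detection in astrocytes. *Oas1g* had 0 counts in all 10 libraries. *Oas1c* had 0 in the 5 sham libraries and 9 counts over the 5 FPI libraries, of which replicate 3 held 7. *Oas2* had 4 counts over the sham and 7 over the FPI libraries, and *Oas3* had 7 and 16. *Oas1a* had 23 and 38, *Oas1b* 23 and 28, and *Oasl1* 21 and 25. When every gene with at least 1 count was kept, none of the 6 with any counts besides *Oasl2* was called, and the smallest edgeR adjusted p among them was 0.887, for *Oas1c*. A difference in these genes was not detected, and with so few counts this does not show equal levels. Among the related lists 0 genes were called in astrocytes by edgeR (0 of 4 of the oligoadenylate pathway, 0 of 8 sensors tested, 0 of 10 of the receptor and ISGF3 list). At an unadjusted edgeR p below 0.05 there were 0, 1 and 4, all of these higher in FPI mice. Of all genes tested, 2.32% had such a p and 1.57% had it with a higher level in FPI mice.

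A second comparison set the cell types against each other in one fit of all 20 libraries. Members other than *Oasl2* passed the filter of that fit through the microglia, where they were higher. The counts of called members thus describe the family and are not a test of it. In sham mice 60.9% of all 15077 genes were called in one direction or the other, 3814 of them higher in microglia. Of the 8 members 6 were called higher in microglia and 0 in astrocytes. The exceptions were *Oasl2*, with 9.0 CPM in microglia and 7.98 in astrocytes (log2 difference 0.17, SE 0.35, edgeR adjusted p = 0.694), and *Oas1b* (2.04, SE 1.09, adjusted p = 0.109 in edgeR). An interval of 2 SE around the *Oasl2* difference includes moderate differences either way. *Oas2* had the largest estimate with counts in both cell types, 5.29 (SE 0.70), though it rests on 4 counts over the sham astrocyte libraries. *Oas1a* was higher in microglia by 3.17, *Oas3* by 2.35 and *Oasl1* by 1.90 on the log2 scale. Against a floor of 3 counts over the 5 sham astrocyte libraries, *Oas1g* was at least 10.9-fold and *Oas1c* at least 18.5-fold higher in microglia.

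In FPI mice 60.9% of all 15077 genes were again called in one direction or the other, 3908 of them higher in microglia. Of the 8 members 7 were called higher in microglia. *Oasl2* was now among them, with 70.7 and 26.8 CPM and a log2 difference of 1.4 (SE 0.34, edgeR adjusted p = 0.00109). *Oas2* differed by 7.05 (SE 0.66), *Oas3* by 4.36 (SE 0.99), *Oas1a* by 4.24 (SE 0.71) and *Oasl1* by 3.30 (SE 0.89). The *Oas2* difference rests on 7 counts over the FPI astrocyte libraries, at 0.177 CPM, beside the 0.138 CPM given by the microglial marker share. *Oas1g* was at least 60.9-fold higher against the floor over the 5 FPI astrocyte libraries. Astrocyte markers stood in FPI microglia at 2.29% of their astrocyte level, and that share of astrocytic *Oasl2* is 0.613 CPM, against 70.7 measured, and the part of astrocytes in the microglial level was not tested.

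Whether FPI acted differently in the cell types was tested by the difference of the FPI effects, microglia minus astrocytes. By edgeR 0 of the 8 members passed an adjusted p below 0.1, 0 did so by DESeq2, and 2, *Oasl2* and *Oas1c*, had an unadjusted p below 0.05. Over all genes 0.199% passed by edgeR, and 7.02% had an unadjusted p below 0.05. For *Oasl2*, the one member measured well in both cell types, the effect was larger in microglia by 1.23 on the log2 scale (SE 0.48, edgeR adjusted p = 0.592). *Oas1c* had -3.67 (SE 1.52, edgeR adjusted p = 0.622), which rests on its 9 astrocyte counts. The difference for *Oas1g*, with 0 counts in astrocytes, cannot be estimated. A difference of the FPI effect between the cell types was therefore not shown for any member. In simulated counts this test recovered 11 of 100 differences of 1 on the log2 scale and 55 of 100 of 2, so a lack of calls does not show equal effects. The comparisons within microglia, within astrocytes and between them use the same libraries.

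Levels of different genes were compared per kb of exon (CPM per kb, over the union of annotated exons). In FPI microglia the order was *Oasl2* (11.1 ± 4.16, SD, n = 5), *Oas1a* (9.75 ± 2.88), *Oas2* (5.62 ± 0.94), *Oasl1* (2.51 ± 0.79), *Oas1g* (1.93 ± 1.05), *Oas1b* (1.49 ± 1.79), *Oas3* (1.24 ± 0.39) and *Oas1c* (0.644 ± 0.367). Among neighbours in that order the ranges separated between *Oas2* and *Oasl1* alone. Beyond neighbours, the widely spread *Oas1b* (up to 4.47 CPM per kb) reached into the range of *Oas2* (from 4.19). In sham microglia the order began with *Oas1a* (2.34 ± 1.62) and *Oasl2* (1.41 ± 0.60), ended with *Oas3* (0.123 ± 0.133), and no neighbours separated. In both astrocyte groups *Oasl2* came first and its range separated from the next gene, at 1.25 ± 0.34 in sham and 4.21 ± 1.96 CPM per kb in FPI astrocytes. The large estimate for *Oas3* in microglia therefore belongs to a gene of low level per length, and *Oasl2* combined a large change with the highest mean level.

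Summed over the 8 members, the level per length was 7.24 ± 3.19 CPM per kb in sham and 34.3 ± 7.59 in FPI microglia, and 1.95 ± 0.45 in sham and 5.53 ± 2.54 in FPI astrocytes (SD, n = 5). *Oasl2* made up 19.6% of the sum in sham microglia, 31.7% in FPI microglia, 64.8% in sham astrocytes and 77.9% in FPI astrocytes. With the longest transcript as the length, *Oasl2* rose to 22.6 CPM per kb in FPI microglia and came first in sham microglia too.

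**Figure D4:**
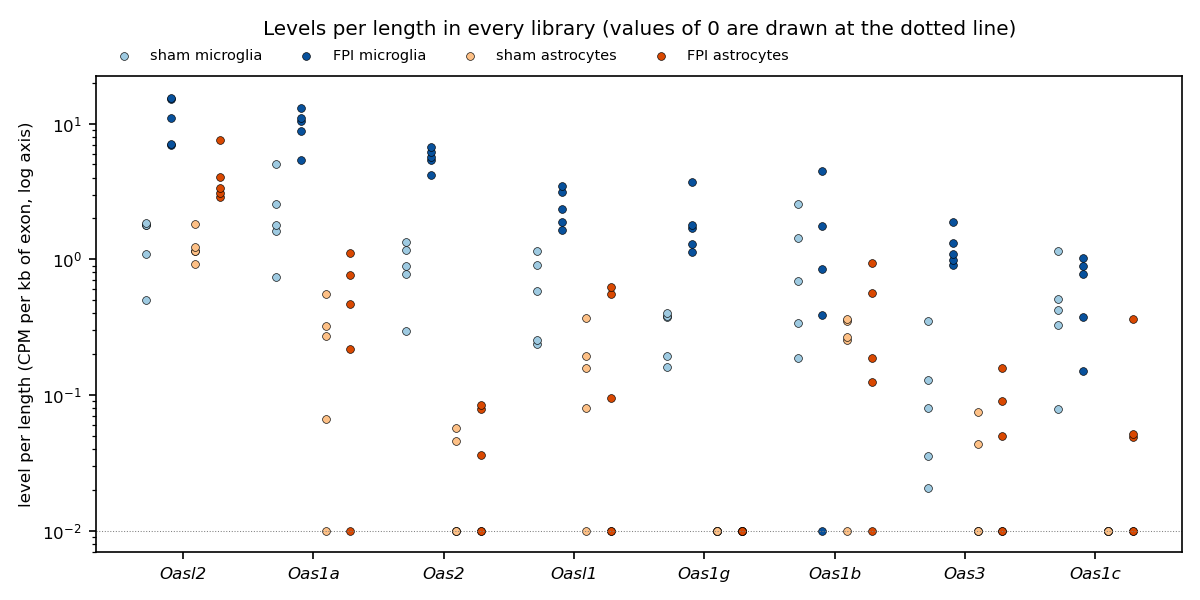
Levels per kb of exon of the members in each library, by group (CPM per kb, log axis, values of 0 drawn at the dotted line). In FPI microglia *Oasl2*, *Oas1a* and *Oas2* have the highest means, and in astrocytes *Oasl2* stands apart from the other members.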

How the data were processed

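Total RNA was sequenced from 20 libraries (4 groups of 5, day 7), grouped by their titles and cell type labels. The authors made stranded libraries with a kit for picogram amounts, and the deposited values are whole-number counts of reads per gene without normalization. The submitters' processing notes name HISAT2 2.1.0, featureCounts and the builds mm10 and GRCm38.p6, while the strand setting of the counting is not given in the sources used here. The authors' own tests used other estimates, and no column of theirs was used. The 8 members and all lists were chosen with earlier results of these data known. The values of 2 genes of the lists are not reported here, and list counts leave them out.

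Counts were fitted in edgeR 4.0.16 (R 4.3.3) with filterByExpr, TMM factors and the quasi-likelihood test, for each cell type alone (10 libraries) and for all 20 libraries together. SE is the log2 fold change over the root of the F statistic. In simulated counts of microglia, 62 of 100 genes changed by a log2 fold change of 1 and 89 of 100 changed by 2 were recovered. In astrocytes 30 and 80 were, and for the difference of the FPI effects 11 and 55 were. Named genes were all members, the list of the oligoadenylate pathway, the called and up to 3 uncalled genes of the other lists, and the 3 genes most correlated with *Oasl2* in each cell type (log2 CPM, prior count 2). Same-numbered FPI and sham replicates come from different animals and were not taken as pairs. Precision is limited by depth, with 3 counts as the floor of a group, and a floor covers counting error only. Alternatives were DESeq2 1.42.0, RLE factors, 2 other filters on low counts, robust empirical Bayes, a replicate block, terms for or subsets of replicates 1 to 3 and 4 to 5, summing FPI astrocyte replicates 2 and 5, other sets of libraries, an adjusted p below 0.05 with no minimum fold change, and leaving out each library. Subsets of the astrocyte replicates, and the alternatives for FPI microglia against FPI astrocytes, were chosen after seeing the data. P-values measure the spread between libraries, which are from 5 animals a group except FPI astrocytes, where replicates 2 and 5 carry the same animal number and are counted as 2 in n = 5. Joint fits treat the libraries of the 3 animals with both cell types as independent.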

Additional observations from a re-analysis of the deposited data

Results flagged for a closer look

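In 3 of 29 groups of 5 libraries, 1 library stood farther from the other 4 than Dixon's test allows at its 95% critical value, and chance alone gives about 1 in 20. *Oasl2* in FPI astrocyte replicate 5 was at 48.57 CPM, and the next library was at 25.79. This library has the microglia suffix in its name, and leaving it out gave *Oasl2* a log2 fold change in astrocytes of 1.42 (edgeR adjusted p = 0.364) in place of 1.77. *Oas1g* in FPI microglia replicate 2 was at 8.736 CPM, and the next library was at 4.159. *Oas1c* in FPI astrocyte replicate 3 was at 0.8721 CPM, which is 7 counts, and the next library was at 0.1252, which is 1 count. No cause was tested for these values.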

How the results depend on the processing

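In microglia *Oasl2* and *Oas2* were called in all 20 alternatives (log2 fold changes 2.76 to 3.14 and 2.36 to 2.89). The count of called members fell from 6 to 3 with at least 10 counts required in every library, which leaves fewer members to test, to 2 with all 20 libraries in one fit, and to 3 in replicates 4 and 5 alone. Leaving out each library gave 4 to 6. For the alternative fits the share of all genes called is not given here. The counts of called members in this section therefore have no background to be read against. In the fit of all 20 libraries *Oas1a*, *Oas1g*, *Oas3* and *Oasl1* lost their calls; the cause was not tested. In astrocytes the count rose from 0 to 1, *Oasl2*, under DESeq2, with no filter beyond 1 count, with the replicate block (adjusted p = 0.0127), with all 20 libraries and with a term for replicates 4 and 5, and it was 0 in every fit without 1 library. With the replicate block 5 members were called in microglia, *Oasl1* was lost, and *Oas1b* turned to -0.10. The numbers were not taken to pair the samples, since same-numbered animals differ and not every correlation of same-numbered deviations passed 0.1: they ran from -0.066 to 0.0924 in microglia and, in astrocytes, were -0.00927 for replicate 2 and 0.245 to 0.452 for the other 4, each of which correlated best with its own number, a hint from the data and not from the design. Between the cell types, *Oasl2* was the only member left to test with at least 10 counts required in every library. The count higher in microglia was then 0 in sham mice and 1 in FPI mice, which says nothing of the other members. With the 10 sham libraries alone the count in sham mice was 2. Without 1 library it was 5 to 7 in sham mice and 7 to 8 in FPI mice. The difference of the FPI effects passed for 0 members in all alternatives, and 0 to 0 without 1 library. Signs turned where nothing was called. *Oas1b* in microglia was at -1.65 in replicates 4 and 5 and at -0.46 without FPI replicate 3 (-0.455 to 1.17 without 1 library), and *Oas1c* was at -0.10 in replicates 1 to 3.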

Other observations

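In astrocytes, with group means removed over the 10 libraries, the genes most like *Oasl2* among 13740 others were *Rpl10*, a ribosomal protein gene (r = 0.956), *Tnr*, an extracellular matrix gene of the oligodendrocyte lineage (r = 0.948), and *Dbnl*, an actin-binding adaptor gene (r = 0.941). *Tnr* had a log2 fold change of 2.88 between FPI and sham astrocytes that was not called (edgeR adjusted p = 0.589). These are descriptions over libraries of which FPI replicate 5 had the highest *Oasl2* level.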
